A study of Mus musculus with 6 samples.

Results

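The receptors for the Fc part of immunoglobulin G and the genes that transmit or restrain their signal were followed in M2c macrophages from mice with and without soluble epoxide hydrolase (sEH), the enzyme encoded by *Ephx2*. The group held 9 genes of the 19309 in the count matrix, each matched by its symbol: the receptors *Fcgr1*, *Fcgr2b*, *Fcgr3* and *Fcgr4*, the shared signaling chain *Fcer1g*, the kinase *Syk*, the phosphatase *Inpp5d*, and the inhibitory receptors *Pirb* and *Lilrb4a*. Bulk RNA was sequenced from 3 sEH-/- and 3 wild-type mice, with 1 library per mouse. Monocytes from the bone marrow of 8 to 10 week old mice were grown for 7 days with the growth factors M-CSF and GM-CSF, exposed for 24 h to LPS and IFN-γ (M1 macrophages), and then given TGF-β1 for a further 48 h (M2c macrophages). Both genotypes received every one of these factors, and no untreated or M1 library was part of the comparison. The series' description gives 24 h for the M1 step, whereas the methods give a shorter time, and the descriptions of the library kit also differ. The sEH-/- mice carried a constitutive deletion in all tissues, and the controls were strain- and age-matched wild-type mice, for which the methods name littermates and mostly females.

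Fc-gamma receptors bind antibody-coated particles and drive their uptake by macrophages. FcγRI (*Fcgr1*), FcγRIII (*Fcgr3*) and FcγRIV (*Fcgr4*) are activating: they pair with the FcR-gamma chain (*Fcer1g*), whose ITAM tyrosines are phosphorylated by Src family kinases and then recruit *Syk*. FcγRIIB (*Fcgr2b*) carries an ITIM and recruits the lipid phosphatase SHIP1 (*Inpp5d*), whereas PIR-B (*Pirb*) and gp49B (*Lilrb4a*) are ITIM receptors that recruit tyrosine phosphatases. IFN-γ is known to induce *Fcgr1* and *Fcgr4* in macrophages, and TGF-β to alter the level of activating Fc-gamma receptors in monocytes.

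The 9 transcripts all passed the filter on low counts, and none passed the test for a difference between the genotypes. The highest fold change was that of *Fcgr1*, whose level was 1.37 times as high in sEH-/- cells (95% confidence interval 1.13 to 1.66), followed by *Pirb* at 1.26 times and *Inpp5d* at 1.15 times. *Fcgr2b*, *Fcgr3*, *Fcgr4*, *Fcer1g*, *Lilrb4a* and *Syk* lay between 0.981 and 1.09 times the wild-type level, each with an interval that included 1. The upper bound of the interval lay beyond 1.5-fold for *Fcgr1* and for *Pirb* (1.58) and at or under 1.34-fold for the other 7 genes. These bounds do not account for the limit that duplicate removal sets on densely covered genes, described below. A gene was called at a Benjamini-Hochberg adjusted p below 0.05 in edgeR's quasi-likelihood test together with a change of more than 1.5-fold in either direction. By this rule 0 of the 9 genes were called, against 360 of 13785 tested genes (2.61%). DESeq2 and limma-voom also called 0 of the 9. At an unadjusted p below 0.05, 3 of the 9 passed (*Fcgr1*, *Inpp5d* and *Pirb*), with 3221 of all tested genes (23.4%) doing so. The fold change lay above 1 for 8 of the 9, as it did for 49.8% of all tested genes.

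The targeted gene followed the labels. Wild-type libraries held 26, 49 and 57 counts of *Ephx2*, against 4, 2 and 1 without sEH (log2 fold change −4.05, SE 0.43, adjusted p = 0.00418, edgeR). Library totals ranged from 4400197 to 6096440 counts, the lowest in sEH-/- replicate 3 and the highest in wild-type replicate 2. All 8 macrophage markers listed, which include *Fcgr1* itself, were tested, and their summed CPM (counts relative to the TMM-normalized library size) ranged from 1985 to 2457 in sEH-/- and from 1744 to 2204 in wild-type cells. Markers of B cells, T and NK cells, mast cells, erythroid cells and dendritic cells had summed levels that overlapped between the genotypes. The neutrophil list did not: the 7 of its 10 markers in the matrix summed to 28.4 to 32.1 CPM in sEH-/- and 17.6 to 21.2 CPM in wild-type cells. The other markers of this list, *Ly6g*, *Mpo* and *Retnlg*, were not in the matrix. Only 1 of the 7 passed the filter on low counts and was tested, and it was not called. This was *S100a8*, which monocytes also make and which gave most of the sum, with 140, 147 and 117 counts in sEH-/- libraries, against 78, 112 and 112 in wild-type. Of the 6 too low to be tested, the granule genes *Camp* (10, 3 and 4 against 1, 1 and 1 counts) and *Ngp* (4, 4 and 3 against 0, 3 and 1) ran higher in sEH-/- libraries. *Elane* had 2, 3 and 1 against 0, 1 and 1 counts, *Ltf* 6, 1 and 0 against 0, 3 and 1, and *S100a9* and *Cxcr2* at most 3 in any library. Stromal markers summed to 64.3 CPM in wild-type replicate 2 and to at most 22.0 CPM in the sEH-/- libraries, with 8.79 CPM as the lowest wild-type value. The part of these markers in the values of the 9 genes was not tested. In bulk RNA, fewer cells that express a gene and less RNA of it per cell cannot be told apart.

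**Figure D1:**
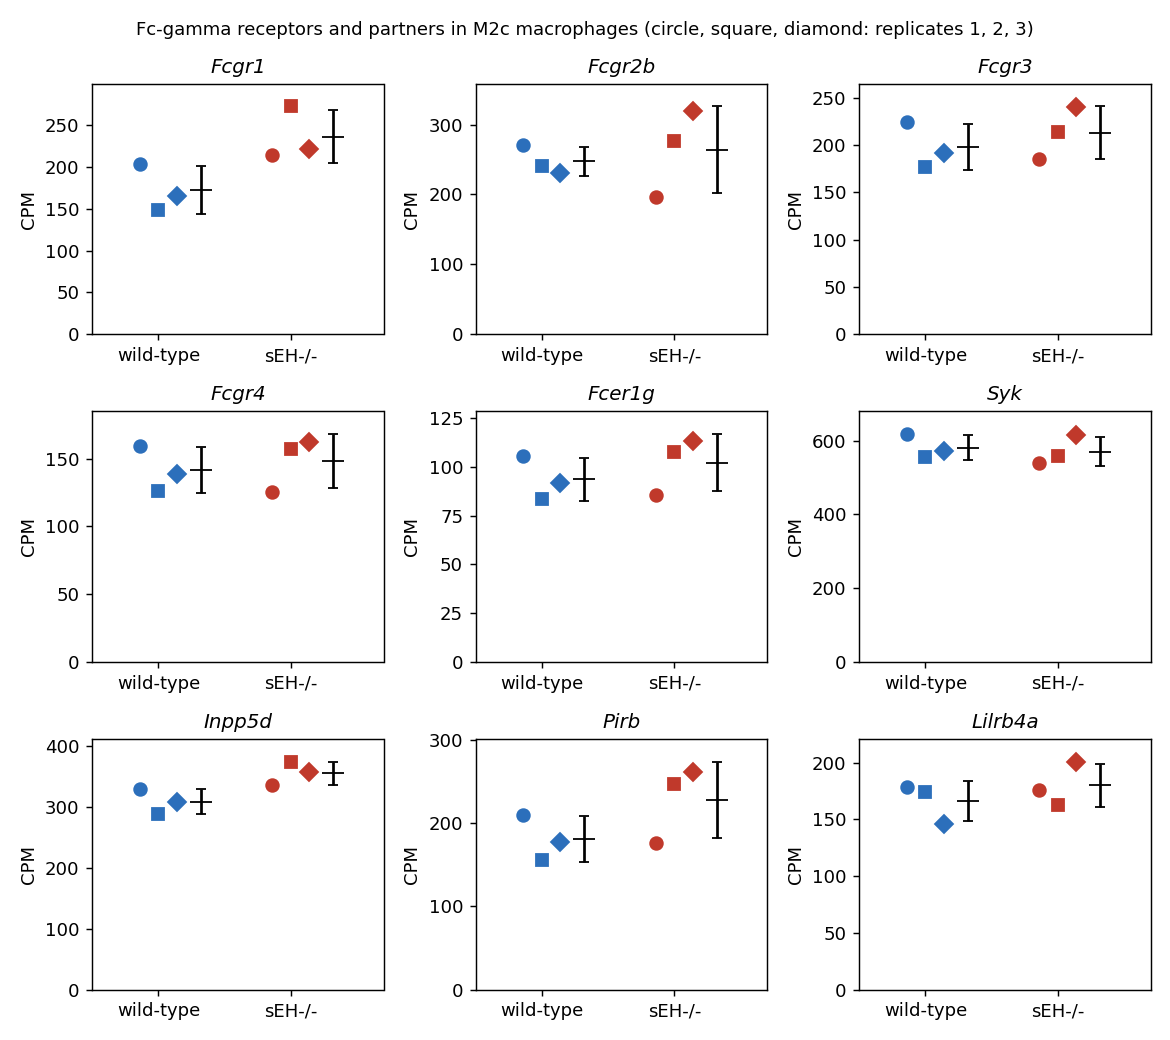
CPM of the 9 genes in each library, with wild-type in blue and sEH-/- in red; circle, square and diamond are replicates 1, 2 and 3, and the black bars give the mean ± SD of 3 libraries. The genotypes separate without overlap for Fcgr1 (148 to 203 against 214 to 272 CPM) and Inpp5d (289 to 331 against 336 to 374 CPM) and overlap for the other 7 genes.

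The DNA just upstream of RefSeq start sites of the activating receptors is shown to set *Fcgr1* beside *Fcgr4* and *Fcgr3*, with matches to motifs of factors through which IFN-γ and the myeloid lineage are known to act on such genes. The stretches were taken from RefSeq promoters of mouse build GRCm38.p6 and leave out bases annotated as exons. Capitals mark matches to the STAT motif TTCNNNGAA, the interferon response core GAAANNGAA and the PU.1 core GAGGAA, or its reverse complement TTCCTC, and no matches overlapped. The stretches lie at chr3:96293970-96294119 (minus strand) for *Fcgr1*, at chr1:171018776-171018919 (plus strand) for *Fcgr4*, and at chr1:171059404-171059553 (minus strand) for *Fcgr3*. That of *Fcgr3* is upstream of a RefSeq start but lies inside the annotated span of the gene.
Fcgr1: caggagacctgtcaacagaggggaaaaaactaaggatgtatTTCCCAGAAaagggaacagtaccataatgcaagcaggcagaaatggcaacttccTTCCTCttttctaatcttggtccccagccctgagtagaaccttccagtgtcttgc
Fcgr4: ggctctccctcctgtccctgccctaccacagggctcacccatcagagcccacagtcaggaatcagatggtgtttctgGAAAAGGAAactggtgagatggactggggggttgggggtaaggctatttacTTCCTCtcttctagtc
Fcgr3: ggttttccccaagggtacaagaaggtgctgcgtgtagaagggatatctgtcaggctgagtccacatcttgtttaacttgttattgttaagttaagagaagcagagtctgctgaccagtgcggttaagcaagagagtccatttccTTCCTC

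All 3 stretches held the PU.1 core, at bases −55 to −50 from the start of *Fcgr1*, −22 to −17 from that of *Fcgr4* and −6 to −1 from that of *Fcgr3*. From the other RefSeq start of *Fcgr3*, the core lies at −15 to −10. The STAT motif was matched only in *Fcgr1* (−109 to −101) and the interferon response core only in *Fcgr4* (−73 to −65) among the 8 genes with a RefSeq promoter (all but *Lilrb4a*). In the 250 bases upstream of all 32851 RefSeq starts, both strands searched, the STAT motif was found in 7.02%, the interferon response core in 7.13% and the PU.1 core in 23.3%. The PU.1 core was further matched upstream of *Inpp5d*, of 1 of 2 *Syk* starts and, in 3 places, of *Pirb*. These matches describe letters in these windows and were not read as binding.

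*Fcgr1* (ENSMUSG00000015947, chr3:96282909-96293969, minus strand, exonic length 2589 bases) encodes the high-affinity receptor for IgG. Without sEH its raw counts were 1252, 1346 and 951, and with sEH 925, 913 and 923. Scaled to library size, these were 214, 272 and 221 CPM against 203, 148 and 165 CPM. Every sEH-/- library lay above every wild-type library on this scale, by a margin of 214 against 203 CPM at the nearest pair. Such separation was seen for 2 of the 9 genes and for 26.3% of all tested genes. The means were 235 ± 31.5 CPM and 172 ± 28.2 CPM (SD, n = 3 each). This gave a log2 fold change of 0.45 (SE 0.12, 95% confidence interval 0.18 to 0.73, unadjusted p = 0.00427, adjusted p = 0.0648, edgeR). In raw counts sEH-/- replicate 3, the library with the smallest total, stood close to the wild-type libraries (951 against 913 to 925), while the other two sEH-/- libraries stood well above them.

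The adjusted p of *Fcgr1* depended on the tool and on single libraries, and the call on 1 library. DESeq2 gave a log2 fold change of 0.46 with an adjusted p of 0.00714, and edgeR without a filter on low counts gave an adjusted p of 0.0411, in each case with a fold change under the threshold. Over 19 alternatives the log2 fold change stayed above 0, the adjusted p ranged from 0.00714 to 1, and the gene was called in 1. That call came without wild-type replicate 1, whose *Fcgr1* level was the highest of its genotype (log2 fold change 0.59, adjusted p = 0.0205, edgeR). Without wild-type replicate 2, whose level was the lowest, the log2 fold change was 0.35 (adjusted p = 0.27, edgeR).

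*Fcgr3* and *Fcgr4*, the other activating receptors, lie with *Fcgr2b* and *Fcer1g* in 276 kb of chromosome 1. *Fcgr3* (ENSMUSG00000059498, chr1:171051174-171064935, minus strand) had 186, 213 and 241 CPM in sEH-/- libraries, against 224, 176 and 192 CPM in wild-type libraries. The genotypes overlapped, and the log2 fold change was 0.11 (95% confidence interval −0.14 to 0.36, adjusted p = 0.6, edgeR). *Fcgr4* (ENSMUSG00000059089, chr1:171018920-171029761, plus strand), a receptor of intermediate affinity for IgG2a and IgG2b, had 126, 157 and 162 CPM against 159, 126 and 139 CPM. Again the 2 ranges overlapped almost entirely, with a log2 fold change of 0.07 (−0.18 to 0.31, adjusted p = 0.772, edgeR). The upper bounds of these intervals correspond to 1.28-fold for *Fcgr3* and 1.24-fold for *Fcgr4*, under the 1.5-fold threshold. Both genes were densely covered, with a highest raw count only 1.07 and 1.12 times the lowest. A difference can be narrowed in such counts. The bounds therefore hold for the counts after duplicate removal and do not limit the change in RNA. Of 26 protein-coding neighbours within 200000 bases of the cluster, 20 were tested and 0 were called by edgeR, against 2.61% of all tested genes. Their log2 fold changes ranged from −1.05 to 0.76, with a median of 0.03.

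*Fcer1g* (ENSMUSG00000058715, chr1:171229572-171234365, minus strand), without which the activating receptors are not held at the cell surface, had 85.5, 107 and 113 CPM in sEH-/- libraries, against 106, 83.6 and 91.6 CPM in wild-type libraries. The ranges overlapped, with a log2 fold change of 0.13 (−0.13 to 0.38, adjusted p = 0.569, edgeR). *Syk* (ENSMUSG00000021457, chr13:52583173-52648792, plus strand) was the member with the most counts, at 539, 558 and 615 CPM against 618, 554 and 572 CPM. Its log2 fold change was −0.03 (−0.23 to 0.17, adjusted p = 0.892, edgeR), and its sign turned when any of 3 single libraries was left out. Among the 9 genes, *Syk* and *Inpp5d* varied least between mice, with coefficients of variation of 5.65% to 6.92% for *Syk* and 5.37% to 6.79% for *Inpp5d*.

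**Figure D2:**
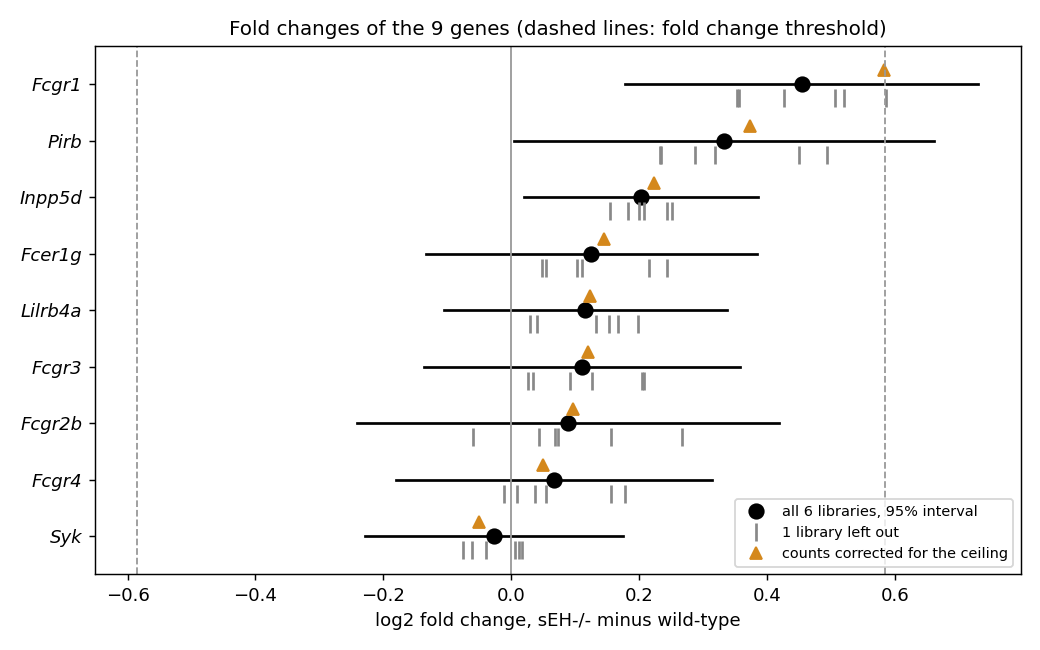
Log2 fold changes (sEH-/- minus wild-type) of the 9 genes on the x axis; black circles and lines are the edgeR estimate from all 6 libraries with its 95% confidence interval, grey ticks the values with 1 library left out, and orange triangles the values after correction of counts for the ceiling set by duplicate removal. Fcgr1, Pirb and Inpp5d have intervals above 0, and Fcgr1 reaches the dashed 1.5-fold threshold with 1 library left out.

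*Fcgr2b* (ENSMUSG00000026656, chr1:170958617-170976547, minus strand), the inhibitory Fc-gamma receptor, had 196, 276 and 319 CPM in sEH-/- libraries, against 271, 240 and 231 CPM in wild-type libraries. The sEH-/- libraries held both the lowest and the highest of the 6 values. Their coefficient of variation was 23.6%, against 8.35% in wild-type. The log2 fold change was 0.09 (95% confidence interval −0.24 to 0.42, adjusted p = 0.772, edgeR) and became −0.06 without sEH-/- replicate 3.

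*Inpp5d* (ENSMUSG00000026288, chr1:87620312-87720507, plus strand) encodes SHIP1, which removes the 5-phosphate from the lipid product of PI 3-kinase. It had 336, 374 and 358 CPM in sEH-/- libraries, against 331, 289 and 308 CPM in wild-type libraries. The genotypes did not overlap, although the nearest values differed by little. The log2 fold change was 0.20 (0.02 to 0.39, unadjusted p = 0.0332, adjusted p = 0.172, edgeR), and the adjusted p stayed above 0.05 in every alternative (lowest 0.104).

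*Pirb* (ENSMUSG00000058818, chr7:3711409-3720391, minus strand), an inhibitory receptor for MHC class I, had 176, 247 and 261 CPM in sEH-/- libraries, against 210, 156 and 177 CPM in wild-type libraries. sEH-/- replicate 1 lay among the wild-type values and the other two lay above them. The log2 fold change was 0.33 (0.0039 to 0.66, unadjusted p = 0.0478, adjusted p = 0.209, edgeR). Without sEH-/- replicate 1 it was 0.49 with an adjusted p of 0.0386 (edgeR). *Lilrb4a* (ENSMUSG00000112148, chr10:51490956-51496611, plus strand) had 176, 163 and 201 CPM against 178, 174 and 146 CPM, which overlapped, and a log2 fold change of 0.12 (−0.10 to 0.34, adjusted p = 0.531, edgeR).

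Several of these genes have near-identical relatives. Reads that map to more than 1 place were removed before counting, and reads over more than 1 gene were not counted. Of the 50-base windows of the annotated transcripts of *Lilrb4a*, 46.7% also occur in transcripts of another gene. The shares were 33.7% for *Gm49339* and 26.1% for *Lilr4b*. For *Pirb* the share was 34.0%, with 17.7% of the windows shared with *Gm14548* and 16.8% with *Pira2*. Only sequences were compared, so relatives elsewhere and annotations that overlap a gene in place were not told apart. For *Fcgr3* it was 9.58%, all with *Fcgr2b*, and for *Fcgr2b* 4.38%. *Fcgr1*, *Fcgr4*, *Fcer1g* and *Syk* shared no window. The levels of *Pirb* and *Lilrb4a* therefore count their unique sequence only and are uncertain when set against those of other genes. *Lilr4b*, the close relative of *Lilrb4a*, had 331 to 371 CPM in wild-type and 348 to 402 CPM in sEH-/- libraries, with a log2 fold change of 0.11 (adjusted p = 0.5, edgeR). *Pira2*, an activating counterpart of *Pirb*, lay at 0.464 to 2.22 CPM in sEH-/- and 0.487 to 0.879 CPM in wild-type libraries, too few counts for a reading (adjusted p = 0.222, edgeR).

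Compared per length, as CPM per kb of exon, *Fcgr3* stood highest in wild-type cells at 114 ± 14.0, followed by *Fcgr4* at 113 ± 13.3 and *Fcer1g* at 107 ± 12.7 (SD, n = 3). The wild-type ranges of *Fcgr3* and *Fcgr4*, and of *Fcgr4* and *Fcer1g*, overlapped. Within libraries, *Fcgr4* lay above *Fcer1g* in all 3 wild-type libraries and in 5 of all 6. *Fcgr3* lay above *Fcgr4* in 2 wild-type libraries and in 4 of all 6. *Fcgr1* came next at 66.6 ± 10.9, and *Syk* at 62.1 ± 3.51 overlapped with it. *Fcgr2b* (42.7 ± 3.57), *Inpp5d* (40.7 ± 2.76) and *Pirb* (40.5 ± 6.15) overlapped one another, and *Lilrb4a* was lowest at 31.7 ± 3.39. *Fcer1g* lay above *Fcgr1*, *Syk* above *Fcgr2b*, and *Pirb* above *Lilrb4a* in all 6 libraries. Per length, the wild-type levels of the 9 genes stood at the 84.4 percentile of all tested genes or above. These levels were not corrected for duplicate removal. The length was the union of all annotated exons, 9362 bases for *Syk* and 5790 for *Fcgr2b*, whose longest transcripts hold 5363 and 3544 bases. For *Fcgr1* both lengths were 2589 bases. The order of the genes, that of *Fcgr1* and *Syk* included, therefore depends on the length used. On the union length, *Fcgr1* reached 90.9 ± 12.2 in sEH-/- cells, which left it below *Fcgr3*, *Fcgr4* and *Fcer1g* and above *Syk* at 60.9 ± 4.22.

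The raw counts of the most densely covered members varied less than the library totals. Reads at the same position had been removed as duplicates, which limits the number of counts a short transcript can hold. *Fcgr3* held 0.61 counts per exonic base, *Fcgr4* 0.596, *Fcer1g* 0.577 and *Fcgr1* 0.406, which placed them at or above the 98.4 percentile of tested genes. The raw counts of *Fcgr3* ranged from 1019 to 1087 over the 6 libraries, a ratio of 1.07 between the highest and the lowest, although the library totals differed by 1.39 times. The ratio was 1.12 for *Fcgr4* and 1.11 for *Fcer1g*. Where the mean was at least 300 counts, the median of this ratio over genes was 1.57 at 0.05 to 0.1 counts per base, 1.27 at 0.3 to 0.5 and 1.15 above 0.5. For *Fcgr3*, *Fcgr4* and *Fcer1g*, the smallest library of each genotype had the highest CPM and the largest library the lowest. *Fcgr1* had a ratio of 1.47, above that of the library totals.

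**Figure D3:**
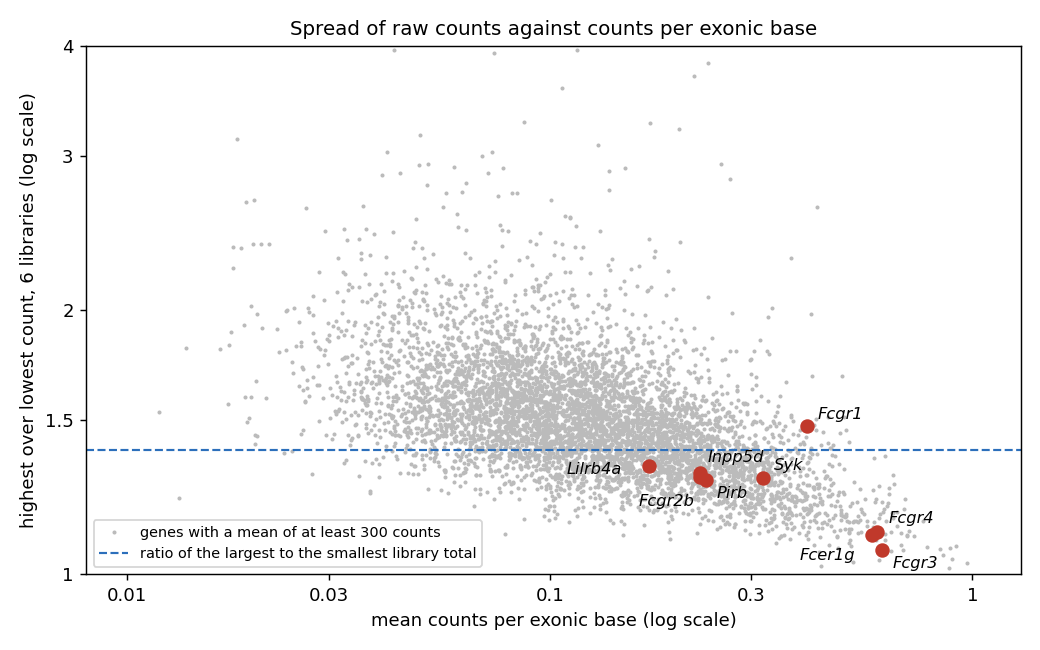
Highest over lowest raw count among the 6 libraries (y axis, log scale) against the mean counts per exonic base (x axis, log scale) for 6021 genes with 300 or more counts on average (grey; a further 9 lie above the axis) and the 9 genes (red); the dashed line is the ratio of the largest to the smallest library total, 1.39. Fcgr3, Fcgr4 and Fcer1g lie at 1.07 to 1.12, far under the line, and Fcgr1 at 1.47, above it.

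After a correction that treats 1 count at each exonic base as the most a gene can hold, the log2 fold change of *Fcgr1* was 0.58 (adjusted p = 0.0504, edgeR), which narrowly missed both thresholds. That of *Fcgr3* was 0.12, of *Fcgr4* 0.05 and of *Fcer1g* 0.14, with adjusted p from 0.502 to 0.834 (edgeR). The highest corrected count of *Fcgr3* was still only 1.113 times its lowest, that of *Fcer1g* 1.178 times and that of *Fcgr4* 1.196 times. These ratios lay under that of the library totals (1.39), so part of the limit may remain in the corrected values. When the fit also held the library total, on a log scale, as a covariate, *Fcgr1* had 0.41 (adjusted p = 0.0855), and *Fcgr2b* and *Fcgr4* turned to −0.03 and −0.01. The correction assumes that reads fall evenly over the union of a gene's annotated exons and that every base of it can hold a count.

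The balance of activating to inhibitory Fc-gamma receptors was described as ratios within each library. The scaling to library size cancels in such a ratio, but the limit set by duplicate removal does not, and the ratios given were not corrected for it. With that correction the mean log2 ratio of the activating receptors to *Fcgr2b* differed by 0.13 between the genotypes, against 0.11 without it. That of *Fcgr1* to *Fcgr2b* differed by 0.51 with it, against 0.39. For *Fcgr3* and *Fcgr4* the correction may leave part of the limit in place. The size of each ratio to *Fcgr2b* also depends on the length used, which was the union of its exons (5790 bases, against 3544 for its longest transcript). The sum of *Fcgr1*, *Fcgr3* and *Fcgr4*, in CPM per kb, was 8.55, 7.41 and 6.40 times that of *Fcgr2b* in sEH-/- and 7.16, 6.26 and 7.14 times in wild-type libraries. The ranges overlapped, with means of 7.45 ± 1.07 and 6.85 ± 0.515 (SD, n = 3). *Fcgr1* alone stood to *Fcgr2b* at 2.44, 2.20 and 1.55 in sEH-/- libraries, against 1.68, 1.38 and 1.60 in wild-type libraries, so that sEH-/- replicate 3 lay within the wild-type range. *Fcgr4* to *Fcgr2b* was 2.64 ± 0.305 against 2.64 ± 0.184, and *Fcgr3* to *Fcgr2b* 2.75 ± 0.351 against 2.66 ± 0.182. *Fcer1g* stood to the sum of the 4 receptors at 0.309 ± 0.00815 in sEH-/- and 0.319 ± 0.00306 in wild-type cells. None of these ratios separated the genotypes, and no test was made on them. Chosen after the values were seen, the ratio of *Fcgr1* to *Fcgr3* was 0.774, 0.853 and 0.614 in sEH-/- libraries, against 0.609, 0.563 and 0.578 in wild-type libraries, and that of *Inpp5d* to *Syk* was 0.767, 0.825 and 0.717 against 0.659, 0.641 and 0.664. Both separated the genotypes, *Fcgr1* to *Fcgr3* by a narrow margin.

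**Figure D4:**
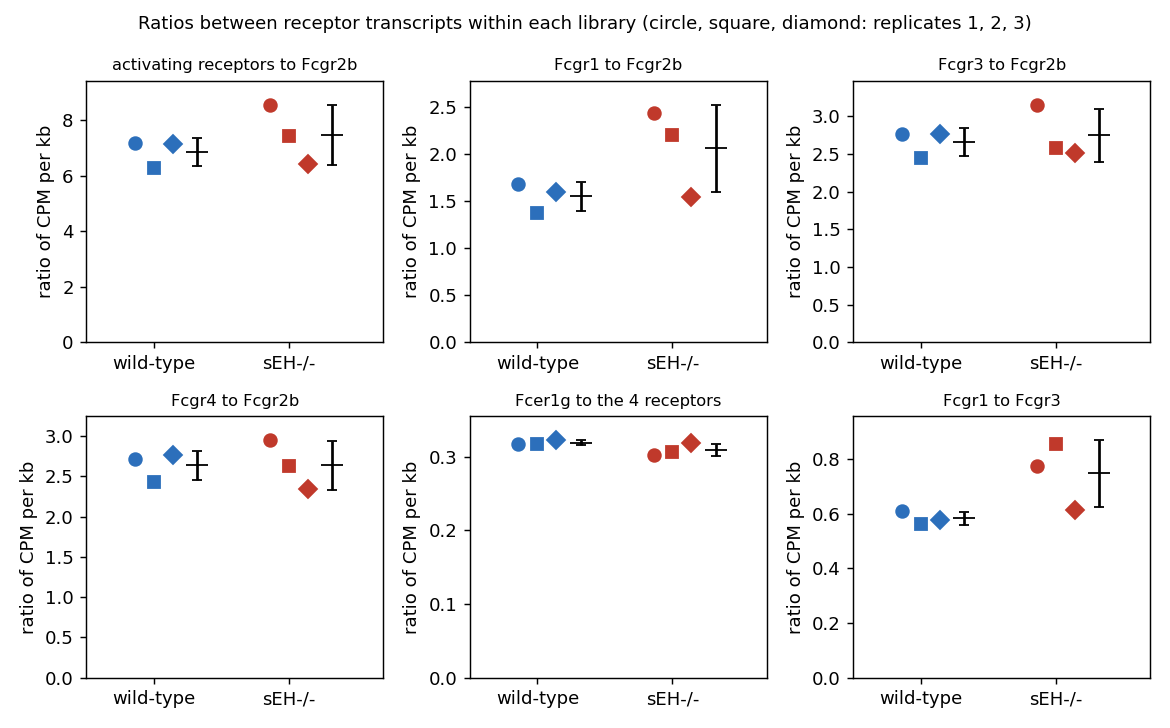
Ratios of CPM per kb of exon between receptor transcripts within each library (y axis), with wild-type in blue and sEH-/- in red; circle, square and diamond are replicates 1, 2 and 3, and black bars the mean ± SD of 3 libraries. Activating receptors to Fcgr2b range from 6.26 to 7.16 in wild-type and from 6.40 to 8.55 in sEH-/- libraries, and only Fcgr1 to Fcgr3 separates the genotypes among the 6 ratios drawn.

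The genes whose centred log2 CPM over the 6 libraries was nearest to that of each receptor were named among 10268 genes with 50 or more counts on average. For *Fcgr1* these were *Ifi203*, of the interferon-inducible p200 family, and *Sting1*, the adaptor for cyclic dinucleotides, at root mean square distances of 0.05 on the log2 scale, against 0.28 for the distance of *Fcgr1* from its own mean. *Ifi203* had a log2 fold change of 0.52 (adjusted p = 0.0543, edgeR) and *Sting1* one of 0.40 (adjusted p = 0.0794, edgeR). The nearest to *Fcgr3* were *Tgm2*, a transglutaminase, and *Lamp1*, a lysosomal membrane protein, and those to *Fcgr4* were *Tpt1* and *Slc25a5*. All of these had their highest CPM of each genotype in the library with the smallest total. *Bmf* and *Slc36a2* were nearest to *Fcgr2b*. *Fcgr4* and *Fcer1g* were 0.03 apart, *Fcgr3* and *Fcer1g* 0.04, and *Fcgr1* was at least 0.21 from each of these and from *Fcgr2b*. These distances share the 6 libraries and their totals and are descriptions.

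The wider pathway was followed in lists of 154 genes, of which 134 were tested. Of these, edgeR called 10 as higher (7.46%) and 0 as lower in sEH-/- cells, beside 208 higher (1.51%) and 152 lower among all tested genes. The lists were chosen with earlier results of these data known, so these shares do not measure an enrichment. The median log2 fold change of the 134 genes was 0.14, against 0.00 over all tested genes. The 10 calls were 4 inhibitory receptors, 5 receptors that pair with FcR-gamma or DAP12, and 1 regulator of Fc receptors. Leaving out wild-type replicate 2 or wild-type replicate 3 left 1 call among the 134, that of *Siglece*, and leaving out sEH-/- replicate 2 left 4.

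The proximal ITAM machinery held no call. Of 30 tested genes of ITAM signaling 0 were called by edgeR, 12 had an unadjusted p below 0.05, and 16 had a log2 fold change above 0 (median 0.06). Over all tested genes, 23.4% had an unadjusted p below 0.05 and 49.8% a log2 fold change above 0 (edgeR). *Plcg2*, the phospholipase downstream of *Syk*, had 196, 213 and 198 CPM in sEH-/- libraries, against 165, 149 and 149 CPM in wild-type libraries, without overlap. Its log2 fold change of 0.39 passed the adjusted p (0.0265, edgeR) but not the fold change threshold. The kinases *Fgr* (0.39, adjusted p = 0.166) and *Lyn* (0.21, adjusted p = 0.221) and the exchange factor *Vav1* (0.22, adjusted p = 0.135) did not pass.

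Of the 30 genes of the phagocytic actin machinery, 0 were called by edgeR, 10 had an unadjusted p below 0.05, and 27 had a log2 fold change above 0 (median 0.13). The shares over all tested genes were 23.4% for an unadjusted p below 0.05 and 49.8% for a log2 fold change above 0 (edgeR). Among 13 inhibitory phosphatases and adaptors 0 were called, 6 had an unadjusted p below 0.05, and the median was 0.20. *Ptpn6*, which encodes SHP-1, the tyrosine phosphatase recruited by ITIM receptors, had 152, 197 and 196 CPM in sEH-/- libraries, against 174, 143 and 154 CPM in wild-type libraries (log2 fold change 0.21, adjusted p = 0.29, edgeR). *Inppl1*, the SHIP2 gene and closest relative of *Inpp5d*, was at 0.01 (adjusted p = 0.957) and *Dok2*, an adaptor that restrains Ras, at 0.13 (adjusted p = 0.428, edgeR). Of the other Fc receptors, 6 of 14 listed were in the matrix and 4 were tested, with 0 called and 1 at an unadjusted p below 0.05. The neonatal receptor *Fcgrt*, which recycles IgG, was at 0.09 (adjusted p = 0.671, edgeR), and *Trim21*, the cytosolic antibody receptor, at 0.33 (adjusted p = 0.077, edgeR).

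Of 19 other inhibitory receptors tested, 4 were called as higher in sEH-/- cells (1.51% over all tested genes) and 0 as lower. The other 15 did not pass, and the median log2 fold change was 0.11. *Siglece*, an ITIM receptor for sialic acid, had 19.7, 18.2 and 23.0 CPM in sEH-/- libraries, against 1.76, 2.43 and 3.94 CPM in wild-type libraries. It rose by 2.87 on the log2 scale (SE 0.27, adjusted p = 0.00388, edgeR). *Lair1*, an inhibitory receptor for collagen, rose by 0.89 (adjusted p = 0.0402), the paired receptor *Pilra* by 0.79 (adjusted p = 0.0172) and the lectin receptor *Clec4a2* by 0.62 (adjusted p = 0.0345, edgeR). All 4 separated the genotypes without overlap, as did 26.3% of all tested genes. For genes already called, this is not separate evidence. *Siglece* was called in all 18 alternatives that tested it. The call on *Lair1* was lost in 6 of 19, among them DESeq2 (adjusted p = 0.0515), that on *Clec4a2* in 7 and that on *Pilra* in 3.

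Of 20 tested receptors that pair with FcR-gamma or DAP12, 5 were called as higher (1.51% over all tested genes) and 0 as lower. The median log2 fold change was 0.53. *Trem1*, a DAP12 receptor that amplifies inflammation, had 45.2, 54.3 and 13.4 CPM in sEH-/- libraries, against 4.4, 1.95 and 4.12 CPM in wild-type libraries and rose by 3.47 (SE 0.50, adjusted p = 0.0123, edgeR). Neutrophils also carry *Trem1*, and the neutrophil list was likewise higher in sEH-/- libraries (28.4 to 32.1 against 17.6 to 21.2 CPM), mostly from *S100a8*. *Trem1* alone exceeded this whole sum in sEH-/- replicates 1 and 2. The part of neutrophils in the value was not tested. *Clec5a* had 89.6, 123 and 96.7 CPM against 66.6, 41.4 and 46.6 CPM and rose by 1.01 (adjusted p = 0.0178, edgeR). *Pilrb1*, *Pilrb2* and *Sirpb1b* rose by 0.98, 1.07 and 1.02 (adjusted p from 0.0266 to 0.0467, edgeR). The calls on *Trem1* and *Clec5a* were each lost in 3 of 19 alternatives, those on *Pilrb2* and *Sirpb1b* each in 4, and that on *Pilrb1* in 9, among them limma-voom (adjusted p = 0.0559). The *Pilr* and *Sirpb1* families hold close relatives, and reads that map to more than 1 place were removed. Their counts may therefore leave out shared sequence, the share of which was not computed for them. The shared adaptor DAP12, encoded by *Tyrobp*, was at 84.9, 103 and 112 CPM against 101, 81.6 and 84.2 CPM (log2 fold change 0.16, adjusted p = 0.431, edgeR), and like *Fcer1g* it was densely covered, at 0.729 counts per base.

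**Figure D5:**
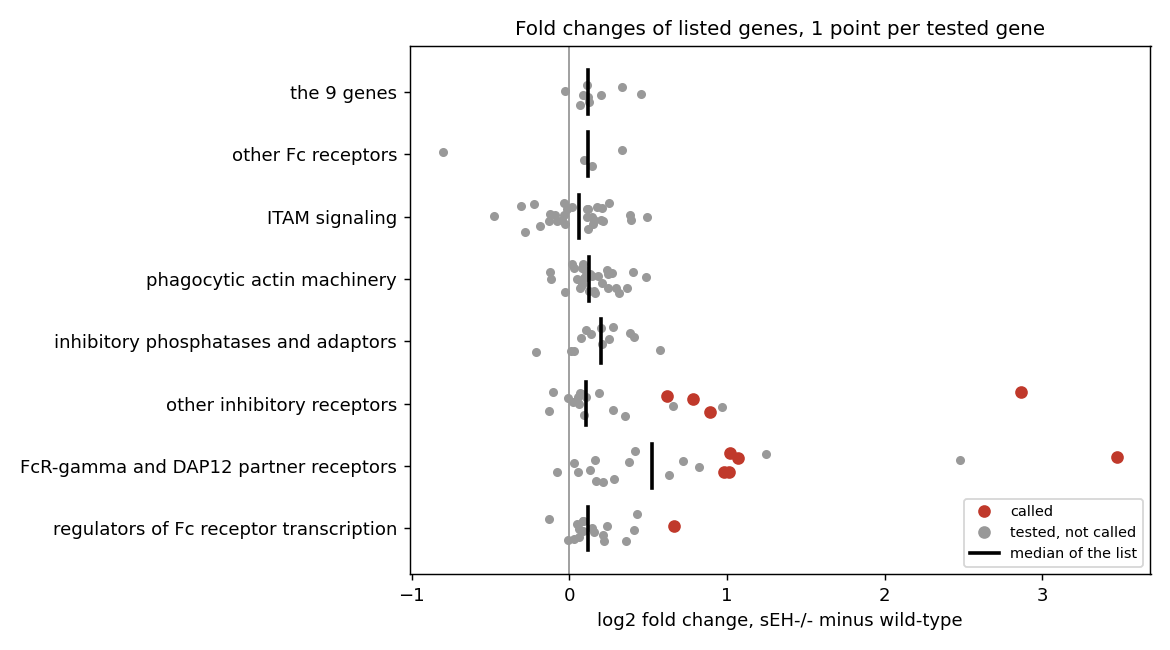
Log2 fold changes (sEH-/- minus wild-type, x axis) of the tested genes of each list, 1 point per gene spread vertically for display; red points are called, grey points are not, and black bars are the medians. The 10 called genes lie in 3 lists and all above 0, and none of the 9 genes at the top is called.

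Of 18 regulators of Fc receptor transcription, 1 was called by edgeR and 16 had a log2 fold change above 0 (median 0.12). Over all tested genes these shares were 2.61% and 49.8%. *C5ar1*, the receptor for the complement fragment C5a, whose signal is known to raise activating and lower inhibitory Fc-gamma receptors, had 153, 176 and 111 CPM in sEH-/- libraries, against 111, 78.4 and 90.3 CPM in wild-type libraries and rose by 0.67 (adjusted p = 0.0486, edgeR). sEH-/- replicate 3 and wild-type replicate 1 were nearly level for this gene, and its call was lost in 7 of 19 alternatives, limma-voom among them (adjusted p = 0.0559). The log2 fold change of *Irf8* was −0.01 (adjusted p = 0.978) and that of *Spi1*, which encodes PU.1, was 0.14 (adjusted p = 0.469, edgeR).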

How the data were processed

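RNA of 3 sEH-/- and 3 wild-type M2c cultures was sequenced on stranded libraries. The authors deposited raw counts per gene, not normalized. According to the methods, reads were trimmed with Trimmomatic, aligned to mm10 with STAR, filtered against duplicates and against reads of multiple, ribosomal or mitochondrial origin, and counted over exons on the correct strand with featureCounts. The submitters' processing notes name Trimmomatic 0.39, STAR 2.7.7a, Picard 2.21.7, featureCounts 1.6.5 and DESeq2 1.30.0, some of which differ from the methods.

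The main test was that of edgeR 4.0.16 in R 4.3.3 (TMM factors 0.982 to 1.03, quasi-likelihood test, no covariates) on the 13785 genes with a mean above 5 counts. Exonic lengths came from GENCODE M21, in which 19286 of 19309 identifiers were found, and promoters from RefSeq. DESeq2 1.42.0 and limma 3.58.1 (voom) were alternatives, with RLE factors, other filters, thinning, a replicate block, covariates, a ceiling correction, other thresholds and each library left out. The fits were tested on simulated data. No 2 libraries of a genotype differed by as little as sampling noise (chi-square per degree of freedom 2.24 to 4.89). The members and lists were chosen with earlier results of these data known. Genes named are the 9, those called in each list (at most 6, by mean count), a fixed set of partners, and the 2 nearest to each receptor; some of these are not reported here. *Trim21* and the neutrophil markers were named after their values were seen. Intervals are for the difference between the genotypes, not for the range of single libraries. Their width rests on the spread between libraries, moderated over all tested genes.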

Additional observations from a re-analysis of the deposited data

How the results depend on the processing

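The number of the 9 genes called was 0 in every alternative except without wild-type replicate 1, where it was 1 (*Fcgr1*, log2 fold change 0.59), giving a range of 0 to 1 with a library left out. The listed partner genes called, 10, became 17 without a fold change threshold and 1 with glmTreat, and ranged from 1 to 14 with a library left out (1 without wild-type replicate 2 or 3, 4 without sEH-/- replicate 2). Over all tested genes, 360 were called, 234 with a replicate block, 171 with the library total as a covariate, 553 without a fold change threshold, 10 with glmTreat, and 6 to 625 with a library left out (6 without wild-type replicate 3, 25 without wild-type replicate 2, 96 without sEH-/- replicate 2). The sign turned for 5 genes, none past the test. With the library total as a covariate, *Fcgr2b* was at −0.0295, *Fcgr4* at −0.0117 and *Inppl1* at −0.00321 on the log2 scale. *Inppl1* was at −0.0114 without TMM factors and −0.00374 in thinned counts, and *Irf8* at 0.00134 with DESeq2, 0.00124 with RLE factors and 0.00665 with at least 10 counts in every library. With a library left out, *Fcgr2b* ranged from −0.0595 to 0.267, *Fcgr4* from −0.011 to 0.178, *Syk* from −0.0747 to 0.0177, *Inppl1* from −0.0121 to 0.0462 and *Irf8* from −0.0721 to 0.0882. The cause was not tested. *Ephx2* kept its direction and its call in the 18 alternatives that gave it a value, and the ratio of activating receptors to *Fcgr2b* kept its direction in the 9 run for it. Replicates of one number did not deviate together (correlations −0.26 to −0.04), so the numbers were not taken as pairs. Under the replicate block, *Fcgr1* had a log2 fold change of 0.45 (adjusted p = 0.112, edgeR).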
